A study of Drosophila melanogaster with 24 samples.

Results

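The genes described here encode the proteins of the mitochondrial ribosome. They were taken as every row of the count table whose symbol begins with mRpL or mRpS followed by a digit, which gave 73 of 16995 genes, 47 named for the large subunit (mRpL) and 26 for the small subunit (mRpS). The measurements were made on single dissected brains of w1118 flies, a white-eyed Drosophila melanogaster strain commonly used as a genetic background, in adult mated flies of 10 to 14 days. Flies labelled female and flies labelled male were left uninjured (control) or received traumatic brain injury (TBI), and their brains were collected 1, 2 or 4 hr later. All 8 groups were of the same w1118 strain, and each held 3 libraries described as biological replicates. The injury was 1 strike of a modified high impact trauma device, which throws flies against the wall of a vial, so that the whole body and not the head alone was struck. The comparisons addressed whether transcripts of this machinery differed after injury, and whether that difference depended on sex.

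Mitochondria keep a small genome of their own and translate it on ribosomes that resemble those of bacteria more than those of the surrounding cytoplasm. The RNA of these ribosomes is encoded in the mitochondrial genome, whereas their proteins are encoded in the nucleus, translated in the cytoplasm and imported. The small subunit reads the messenger RNA and the large subunit joins the amino acids, and the products are core subunits of the respiratory chain and of the ATP synthase, on which neurons depend for much of their energy. In the symbols, numbers up to 36 in the large and up to 21 in the small subunit follow the bacterial proteins, and higher numbers were mostly given to proteins that the mitochondrial ribosome gained later. Of the 73 genes, 42 had bacterial numbers and 31 had higher ones. They lay on arms 2L (12), 2R (12), 3L (17), 3R (21) and X (11) in the Release 6 annotation. In that annotation another gene model overlapped 43 of them, on the opposite strand for 42. Because no source used here gives the strand setting of the counting, reads of such partners may be included in either gene.

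The libraries were unequal in depth, with total counts from 46943 to 1769669. Of the 24 libraries, 8 held more than 1000000 counts and 4 held fewer than 100000, namely replicate 3 of each control group, female-labelled 1 hr replicate 2 and male-labelled 4 hr replicate 2. Levels are given as CPM, the count of a gene per 1000000 counts of its library after scaling with TMM factors (trimmed mean of M-values) over the 24 libraries, so that 1 read corresponded to between 0.662 and 16.9 CPM depending on the library. The roX1 RNA, a component of the male dosage compensation complex, was at 706 to 1013 CPM in male-labelled libraries and at 712 to 1249 CPM in 10 of 12 female-labelled libraries. It was at 6.02 CPM in female-labelled 2 hr replicate 2 and at 78.1 CPM in female-labelled 4 hr replicate 2. The roX1 level therefore went against the female label in 10 libraries. The yolk protein gene Yp1, also used as a sex check, was at 285 to 2234 CPM in male-labelled libraries. It was at 21960 CPM in female-labelled 1 hr replicate 1, where roX1 was at 714 CPM, and at 18350 CPM in female-labelled 2 hr replicate 2. Other female-labelled libraries were at 362 to 5065 CPM of Yp1. Groups are therefore named by their sex label only. All 12 neuronal markers looked for (among them elav, nSyb, brp and Syt1) had reads in every library, with a summed level of 2607 to 5677 CPM in 22 libraries and of 557 and 1473 CPM in the same female-labelled 2 hr replicate 2 and 4 hr replicate 2. Summed levels of 5 ovary and 5 testis markers did not exceed 1.48 and 4.26 CPM. In a single brain, fewer cells of a type and less RNA per cell cannot be told apart.

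Mitochondrial ribosomal protein genes were read at low counts. Together they took 43938 of 16767390 reads. In the single libraries they accounted for 0.126 to 0.370% of all counts, from 66 reads on 26 of the genes in female-labelled control replicate 3 to 6551 reads on 68 genes in female-labelled 4 hr replicate 2. Only 16 of the 73 had a read in each of the 24 libraries. The filter on low counts left 64 to be tested in the female-labelled libraries, 41 in the male-labelled libraries and 58 in the comparisons that used all 24. The 41 tested in male-labelled libraries were also tested in female-labelled ones, 23 were tested in female-labelled libraries alone, and 9 (mRpL4, mRpL10, mRpL36, mRpL43, mRpL48, mRpL53, mRpS9, mRpS23 and mRpS24) were tested in neither. No read fell on mRpL53, only 5 on mRpS9, and the 12 reads of mRpS24 all came from female-labelled 1 hr replicate 1. A low count of this kind need not mean that a gene is silent, because the 3′ method counts only reads at transcript ends that lie within the annotated gene. Of the 9 untested members, all but mRpL36 overlap a gene model on the opposite strand. What this did to their counts was not tested.

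The genes with the most reads were mRpL49, mRpL52 and mRpL34 in the large subunit and mRpS7 and mRpS14 in the small subunit. These are counts of transcript ends and were not divided by gene length. mRpL49, a protein of the mitochondrial large subunit without a bacterial number, was at 137 ± 89.2 CPM (SD, n = 3) in female-labelled controls and at 192 ± 109, 166 ± 59.1 and 195 ± 97.2 CPM at 1, 2 and 4 hr. In male-labelled brains it was at 175 ± 121 CPM in controls and at 217 ± 47.7, 157 ± 4.98 and 142 ± 82.0 CPM after injury, and the replicates of all these groups overlapped those of their controls. mRpL34, the counterpart of a small bacterial large-subunit protein, ranged from 30.7 CPM in female-labelled control replicate 3 to 315 CPM in male-labelled control replicate 2, so that its extremes were both in uninjured brains. mRpL52 was at 181, 144 and 184 CPM in female-labelled controls and at 117, 247 and 281 CPM at 1 hr, and its lowest level of the series was 46.6 CPM in male-labelled 2 hr replicate 2. mRpS7, which in bacteria helps to build the head of the small subunit, was at 46.0 to 78.6 CPM in female-labelled controls and at 81.3 to 147 CPM at 2 hr, without overlap, and at 64.1 to 173 CPM at 4 hr, with overlap. mRpS14, another protein of the small-subunit head, was at 46.0 to 80.6 CPM in female-labelled controls, at 85.9 to 124 CPM at 2 hr and at 80.8 to 134 CPM at 4 hr, and its lowest 4 hr library lay just above its highest control. Neither mRpS7 nor mRpS14 passed the test in any comparison, the largest log2 fold change being 0.71 ± 0.64 (SE) for mRpS7 at 2 hr in female-labelled brains.

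**Figure D1:**
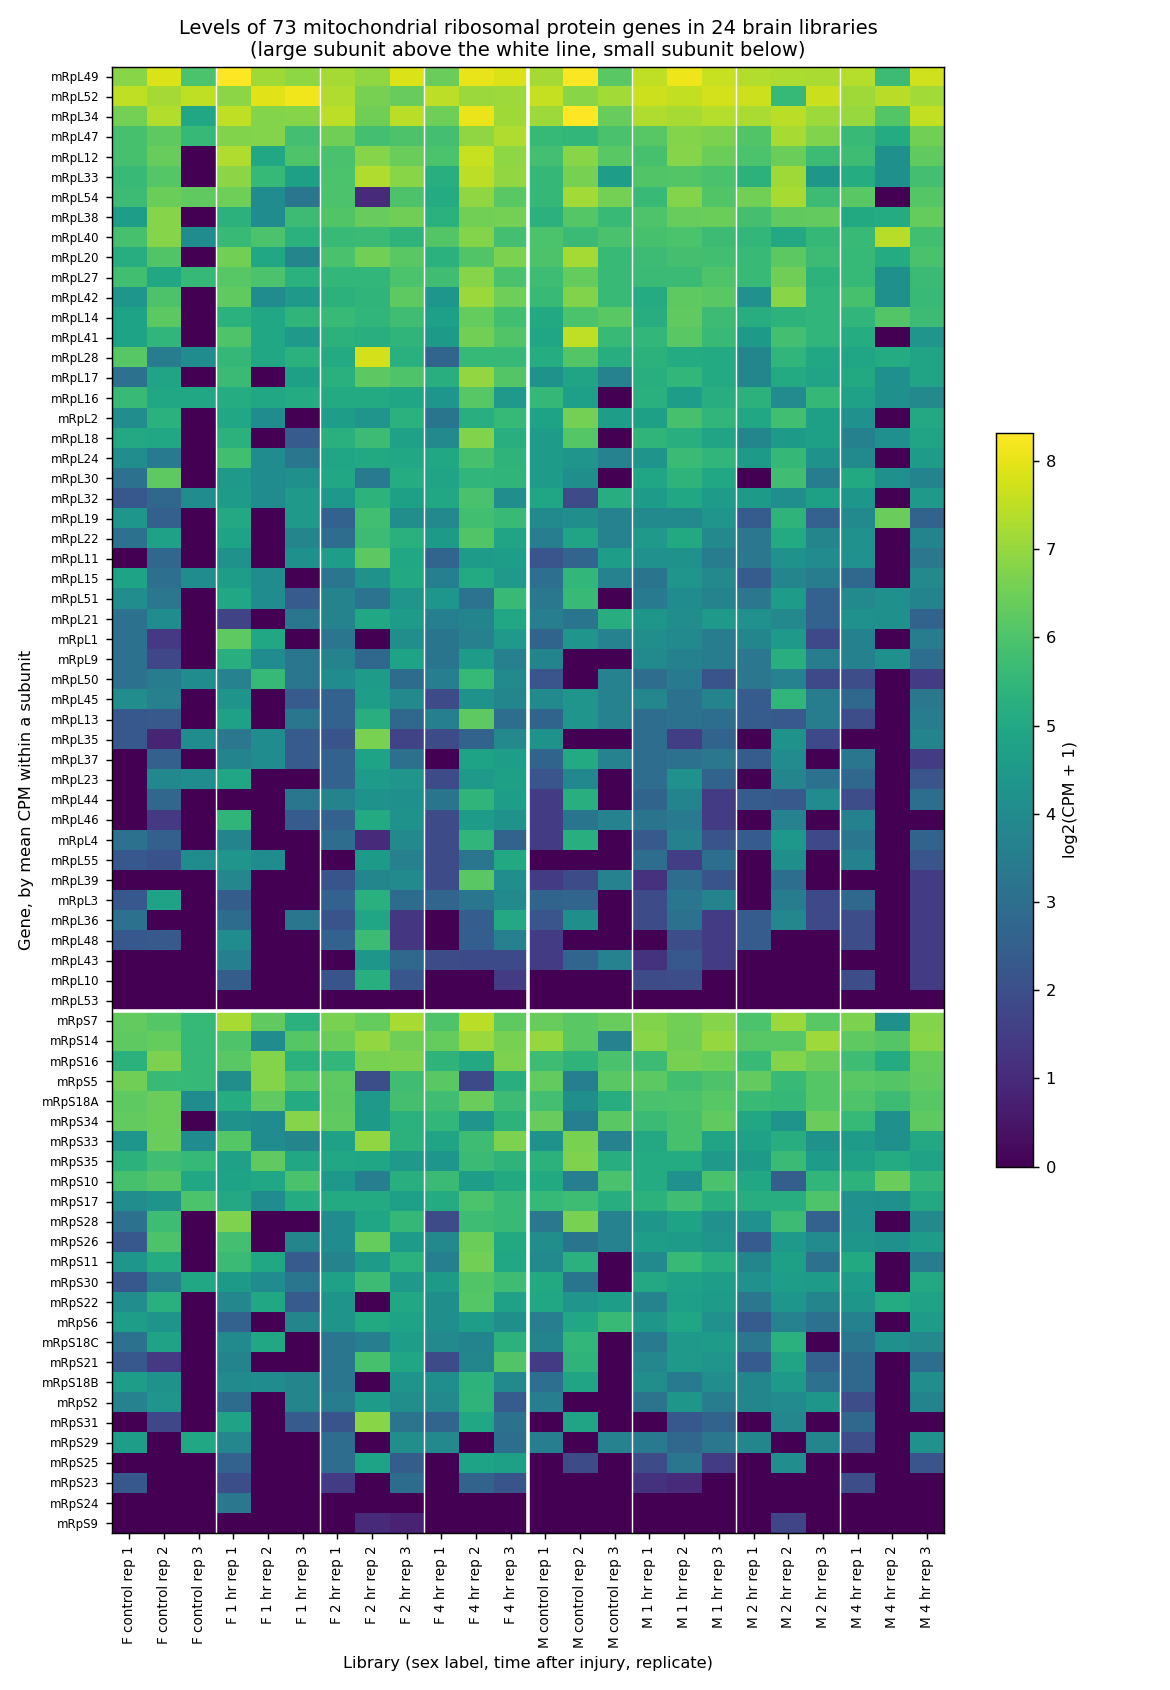
Level of each of the 73 genes, as log2(CPM + 1), in each of the 24 libraries (F, female-labelled; M, male-labelled; rep, replicate), with genes in rows ordered by mean CPM within a subunit and libraries in columns. The darkest cells have no read, and they gather among genes with a low mean and in the libraries with fewer than 100000 counts, such as F control rep 3 with reads on 26 genes.

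Summed over the 73 genes, which needs no filter, the level was 1888 ± 857 CPM in female-labelled controls and 2260 ± 780, 2763 ± 494 and 3137 ± 1289 CPM at 1, 2 and 4 hr (SD, n = 3). In male-labelled brains it was 2429 ± 816 CPM in controls and 2659 ± 293, 2318 ± 517 and 1928 ± 494 CPM. The mean was thus higher at each later time in female-labelled brains and was lowest at 4 hr in male-labelled brains, but in each of the 6 comparisons the injured libraries overlapped their controls. In female-labelled controls the summed level was 1926, 2725 and 1013 CPM, and at 4 hr it was 1773, 4334 and 3304 CPM. The lowest 4 hr library was therefore below 2 of the 3 controls.

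The summed level was higher in the deeper libraries. It lay between 2725 and 4334 CPM in the 8 libraries over 1000000 counts and between 1013 and 1897 CPM in the 4 libraries under 100000. In the other 12 libraries it lay between 1728 and 3351 CPM. Female-labelled controls held 1 of the 8 deep libraries, the female-labelled 2 hr and 4 hr groups held 2 each, male-labelled controls and the male-labelled 4 hr group held none, and the female-labelled 1 hr, male-labelled 1 hr and male-labelled 2 hr groups held 1 each. Among the female-labelled libraries over 1000000 counts, the single control was at 2725 CPM, and the injured ones were at 3156 CPM (1 hr), 3234 and 2807 CPM (2 hr) and 4334 and 3304 CPM (4 hr). As a share of the raw count, without TMM factors, that control was at 0.283% and the same 5 injured libraries were at 0.253%, 0.211%, 0.267%, 0.370% and 0.282%, so that only 1 of the 5 remained above it. Male-labelled control replicate 2 stood apart, with 3351 CPM at 418494 counts, the second highest level of the series.

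Several libraries with a high summed level had low neuronal markers. Female-labelled 4 hr replicate 2 combined 4334 CPM of the 73 genes with 1473 CPM of neuronal markers, and female-labelled 2 hr replicate 2 combined 3234 with 557 CPM. Male-labelled control replicate 2 (3351 and 2714 CPM) and female-labelled 1 hr replicate 1 (3156 and 2607 CPM) showed the same pairing. Female-labelled control replicate 2 did not, with 2725 CPM of the 73 genes beside 5038 CPM of neuronal markers. The summed level of cytoplasmic ribosomal proteins was 201600 to 305400 CPM in the first 4 of these libraries, against 116900 to 209600 CPM in the other 20. Markers of other cell types also differed between libraries. The summed level of 9 fat body markers was 4794 to 10490 CPM in female-labelled controls and 7316 to 38720, 7917 to 37730 and 5580 to 12770 CPM at 1, 2 and 4 hr. The values of 38720 and 37730 CPM were those of 1 hr replicate 1 and 2 hr replicate 2, both with a high summed level of the 73 genes, whereas 4 hr replicate 2, with the highest, was at 5580 CPM. The yolk protein genes Yp1, Yp2 and Yp3, which are among these markers, made up most of both high sums. They were at 21960, 9605 and 3546 CPM in 1 hr replicate 1 and at 18350, 7673 and 8964 CPM in 2 hr replicate 2. Yp1 did not exceed 3468 CPM in female-labelled controls. The 11 photoreceptor markers summed to 4602 to 9027 CPM in female-labelled controls and to 9130 to 15150 CPM at 2 hr, without overlap, and the 9 glial markers to 1680 to 2009 CPM in those controls and 1094 to 1917 CPM at 2 hr. In male-labelled libraries the fat body sum stayed between 4651 and 7488 CPM. The part that depth, cell composition or RNA quality had in the differences between groups was not tested.

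**Figure D2:**
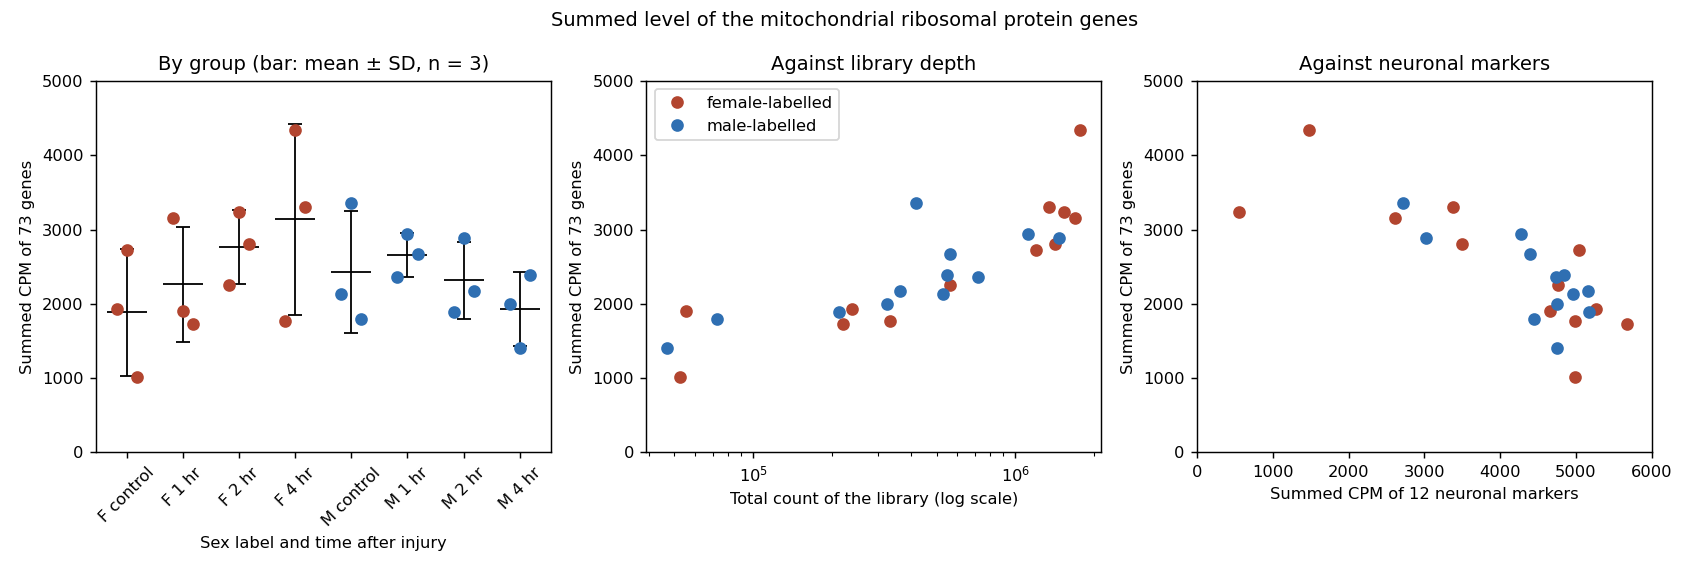
Summed CPM of the 73 genes in each library, by group (left, replicates 1 to 3 from left to right, with mean and SD), against the total count of the library on a log axis (middle) and against the summed CPM of 12 neuronal markers (right). Injured libraries overlap their controls in every group, the 8 libraries over 1000000 counts lie at 2725 CPM or above, and the points farthest to the left in the right panel (557 and 1473 CPM of neuronal markers) are at 3234 and 4334 CPM.

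Each gene was then compared between injured and control brains with the quasi-likelihood test of edgeR, and a gene was called where its Benjamini-Hochberg adjusted p over all genes tested was under 0.05 and its log2 fold change was over 1 in either direction. No member was called in any of the 6 comparisons with control, in the 3 tests of a difference between sex labels or between the controls, and the same fit called none of the 5918, 4474 or 5462 genes tested (0% of all genes in each). DESeq2 and limma-voom likewise called no member. The values below are therefore descriptions of differences that did not exceed the spread between replicates once all genes were considered. The spread was wide, with a biological coefficient of variation (the replicate SD of a gene relative to its level, as edgeR estimates it) of 0.771 for the median member in female-labelled and of 0.359 in male-labelled libraries.

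In female-labelled brains the fold changes of the tested members leaned upwards at 2 and 4 hr. At an unadjusted p under 0.05 and the same limit on fold change, 2 of 64 members were higher at 1 hr, 7 at 2 hr and 8 at 4 hr, and none was lower. Over all genes tested the same rule gave 1.39% higher at 1 hr, 6.93% at 2 hr and 4.78% at 4 hr, against 3.12%, 10.9% and 12.5% of the members. The median log2 fold change of the tested members was 0.31, 0.50 and 0.79, beside 0.05, 0.00 and 0.04 over all genes tested, and it was above 0 for 38, 51 and 55 of the 64 members, or 59.4%, 79.7% and 85.9%, against 53.2%, 50.2% and 51.3% of all genes. Members that passed the filter only through the group in which they were read are among those 64. Setting genes with no read in a group to their bound left the medians as they were. Beside these medians, the 7 tested fat body markers had medians of 1.09, 1.93 and 0.92, the 11 photoreceptor markers 0.46, 2.04 and 0.12, with 6 higher by the unadjusted rule at 2 hr, and the 12 neuronal markers -0.17, -0.82 and -0.71. The fat body markers included the yolk protein genes. The part of these marker genes in the members' values was not tested. With no filter, 72 members had a median of 0.33, 0.58 and 0.82, where all genes had 0.00, 0.19 and 0.20. The 27 tested members with a mean level of 30 CPM or more had medians of 0.10, 0.28 and 0.46, and the 37 with a lower mean had medians of 0.43, 0.98 and 1.20.

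These counts rested on single libraries. At 1 hr the 2 became 0 without control replicate 1 or without 1 hr replicate 1, and 3 without 1 hr replicate 3. Over all genes tested, 146 of 6907, 20 of 5726 and 160 of 6945 were higher in those respective fits. Without female-labelled 2 hr replicate 2, 1 of 61 members instead of 7 was higher at 2 hr. Without control replicate 2 there were 4 of 61. The respective counts over all genes were 99 of 5604 and 237 of 5722. At 4 hr the 8 became 1 without 4 hr replicate 2, 3 without 4 hr replicate 3, 2 without control replicate 1 and 4 without control replicate 3. Over all genes the respective counts were 84 of 5615, 208 of 5757, 285 of 6907 and 241 of 6951. Without both libraries low in roX1, 1 of 48 members was higher at 2 hr and 1 at 4 hr, with medians of 0.34 and 0.23. Beside this, 95 and 118 of all 4726 genes were higher, with medians of 0.02 and 0.01. The median at 4 hr ran from 0.37 without 4 hr replicate 2 to 1.60 without control replicate 2, and at 1 hr from -0.16 without 1 hr replicate 1 to 0.82 without control replicate 2. The method mattered as well. limma-voom with sample weights gave 0, 11 and 17 of 64 members higher at 1, 2 and 4 hr. Of all 5918 genes it gave 77, 370 and 420 higher, and at 4 hr 403 lower, against 18 lower in the quasi-likelihood test. The likelihood ratio test gave 5, 8 and 9 members higher, of 71, 71 and 70. Beside them, 444 of 8742, 759 of 9247 and 600 of 9215 genes were higher. With the log2 total count as a covariate, a setting added after the data were seen, the medians at 1, 2 and 4 hr were 0.17, 0.12 and 0.30.

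The subunits were also described apart, with no test of a difference between them. In female-labelled brains the median log2 fold change of its 41 tested members was 0.43, 0.66 and 1.10 at 1, 2 and 4 hr, and that of the 23 tested small-subunit members was -0.14, 0.27 and 0.60. At 4 hr the fold change was above 0 in 39 of 41 large-subunit and in 16 of 23 small-subunit members. The unadjusted rule gave 9.76% of the large and 13% of the small subunit at 2 hr and 14.6% and 8.7% at 4 hr, and the shares wholly above the controls at 2 hr were 22% and 21.7%. Members with bacterial numbers and members with higher numbers had similar medians at 4 hr (0.78 and 0.82). The ratio of the summed large-subunit to the summed small-subunit level was 1.64 ± 0.17 in female-labelled controls and 2.19 ± 0.41, 2.13 ± 0.11 and 2.24 ± 0.43 at 1, 2 and 4 hr. In the controls it was 1.678, 1.785 and 1.444, and in the injured libraries it was 1.778 to 2.65. The lowest injured library, 4 hr replicate 1, was thus just below control replicate 2. The highest ratio of the series, 2.996, was in an uninjured brain, male-labelled control replicate 2. Male-labelled groups had ratios of 2.29 ± 0.64 in controls and 2.11 ± 0.18, 2.19 ± 0.35 and 1.90 ± 0.11 after injury. No test was made of these ratios.

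**Figure D3:**
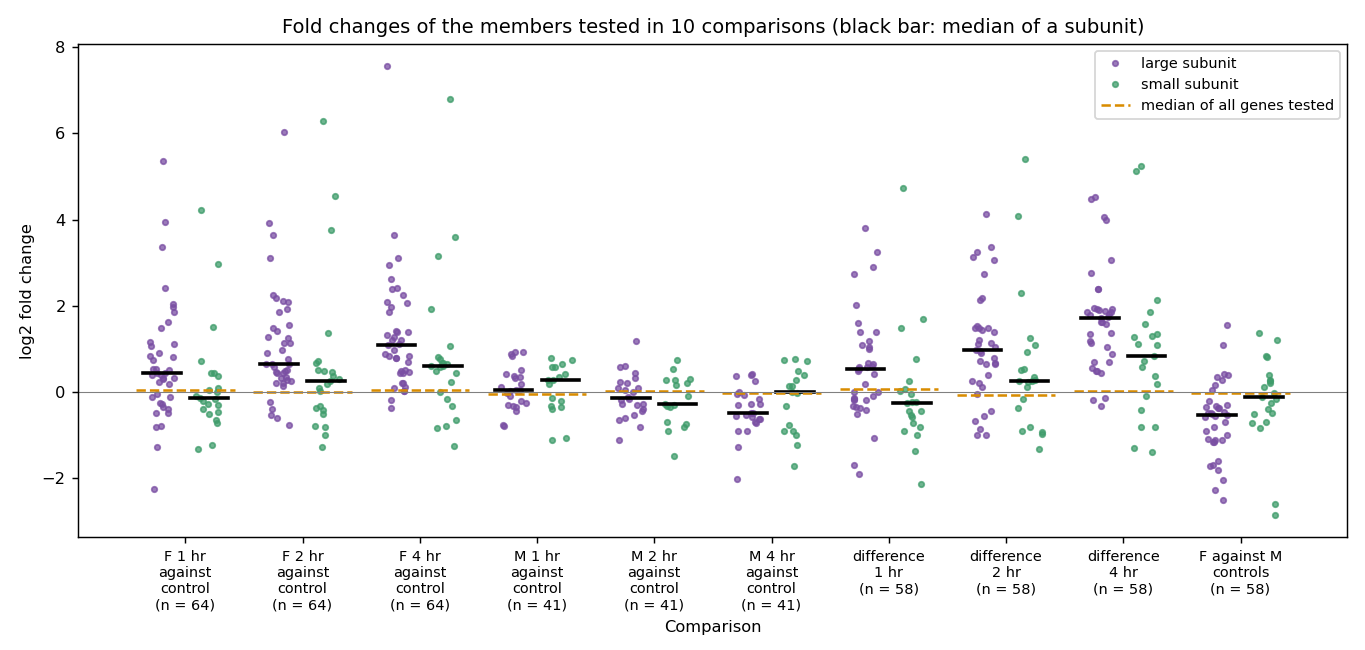
log2 fold change of each tested member in the 10 comparisons, with the large subunit to the left and the small subunit to the right of each position, black bars at their medians and a dashed line at the median of all genes tested. The 3 positions named difference are the female-labelled minus the male-labelled change. The bars at F 4 hr are at 1.10 and 0.60 and those at M 4 hr are at -0.48 and 0.00, and the highest points (7.55 and 6.78 at F 4 hr) are genes with no read in female-labelled controls.

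Among large-subunit proteins with bacterial counterparts, mRpL11 had the smallest p at 2 hr. In bacteria L11 forms the base at which elongation factors act on the ribosome. It was at 0, 5.64 and 0 CPM in female-labelled controls, from 0, 7 and 0 reads, and at 24.1, 74.3 and 30.5 CPM at 2 hr, without overlap. The log2 fold change was 3.63 ± 1.22 (SE, edgeR adjusted p = 0.535). The 1 hr libraries were at 17.8, 0 and 17.02 CPM and the 4 hr libraries at 5.58, 22.5 and 24.4 CPM, and both groups overlapped the controls.

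mRpL32 and mRpL17, whose bacterial counterparts lie near the exit of the tunnel through which the new protein leaves, were higher than every control in more than 1 group. mRpL32 was at 3.93, 5.64 and 15.3 CPM in female-labelled controls, at 23.0, 15.4 and 21.3 CPM at 1 hr, at 20.6, 40.1 and 25.3 CPM at 2 hr and at 30.7, 60.2 and 15.7 CPM at 4 hr. The lowest 1 hr and 4 hr libraries were separated from the highest control by less than the value of 1 read in that control. Its log2 fold change at 4 hr was 2.41 ± 0.97 (edgeR adjusted p = 0.929). mRpL17 was at 7.86, 28.2 and 0 CPM in controls and at 36.2, 124 and 67.2 CPM at 4 hr, from 13, 187 and 77 reads, with a log2 fold change of 2.25 ± 0.94 (edgeR adjusted p = 0.929). Its 2 hr libraries, at 37.8, 73.3 and 64.1 CPM, were also above every control.

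mRpL1, which in bacteria forms the stalk beside which spent transfer RNA leaves, and mRpL9, which extends from near that stalk, were among the 4 members of smallest p at 1 hr. mRpL1 was at 74.9 CPM in 1 hr replicate 1, from 101 reads, but at 30.8 and 0 CPM in the other two, from 2 and 0 reads, against 7.86, 1.61 and 0 CPM in controls. mRpL9 was at 37.1, 15.4 and 8.51 CPM at 1 hr against 7.86, 2.42 and 0 CPM in controls, and thus had no overlap. The respective log2 fold changes were 3.35 ± 1.70 and 2.42 ± 1.26 (edgeR adjusted p = 1.00 for both). The separation of mRpL9 rested on 1 read in replicate 2 and 2 reads in replicate 3. At 4 hr mRpL13 and mRpL24, both counterparts of bacterial proteins that bind ribosomal RNA early in assembly, also passed the unadjusted rule, with log2 fold changes of 3.10 ± 1.42 and 2.09 ± 0.92. mRpL24 was at 15.7, 9.67 and 0 CPM in controls and at 30.7, 58.2 and 41.9 CPM at 4 hr.

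Among large-subunit proteins with higher numbers, mRpL39 and mRpL46 had the largest fold changes. Both are components of the mitochondrial large subunit that have no bacterial number. No read of mRpL39 fell in the 3 female-labelled controls. There were 18, 0 and 0 reads at 1 hr and 2, 13 and 20 reads at 2 hr. The 4 hr libraries had 1, 108 and 18 reads, which is 2.79, 71.4 and 15.7 CPM. Against a floor of 3 reads over the control group, the pooled level was at least 5.68-fold higher at 1 hr, at least 6.23-fold higher at 2 hr and at least 21.9-fold higher at 4 hr (edgeR adjusted p = 1.00, 0.570 and 0.929). Of the 127 reads at 4 hr, 108 were in the library low in roX1 and in neuronal markers. mRpL46 was at 0, 1.61 and 0 CPM in controls, at 42.3, 0 and 4.26 CPM at 1 hr, at 5.15, 33.1 and 17.9 CPM at 2 hr and at 2.79, 23.2 and 18.3 CPM at 4 hr. The 2 hr and 4 hr libraries were above every control, and the log2 fold changes were 3.94 ± 1.62, 3.92 ± 1.61 and 3.64 ± 1.60. mRpL44, which carries a domain of the RNase III kind, was also above every control at both times, at 12.03 to 18.1 CPM and 8.36 to 42.3 CPM against 0 to 5.64 CPM. mRpL55 did not stand out in female-labelled brains, with 3.93, 3.224 and 15.3 CPM in controls and 2.79, 8.601 and 32.3 CPM at 4 hr (log2 fold change 1.402 ± 1.64). mRpL43, a mitochondria-specific protein named by the study, had at most 20 reads in a library and was tested in neither sex label. It had no read in female-labelled controls, 15, 0 and 0 reads at 1 hr, 0, 20 and 8 reads at 2 hr and 1, 4 and 3 reads at 4 hr, so that its pooled level was at least 4.73-fold, 4.99-fold and 1.38-fold higher against a floor of 3 reads.

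In the small subunit, mRpS25, mRpS31 and mRpS21 stood out. mRpS25 and mRpS31 have no bacterial number, and mRpS21 is the counterpart of bacterial S21, the last small-subunit protein in that numbering. mRpS25 had no read in female-labelled controls, 4, 27 and 6 reads at 2 hr (6.87, 27.1 and 4.47 CPM) and 0, 41 and 29 at 4 hr (0, 27.1 and 25.3 CPM). The pooled level was at least 6.59-fold higher at 2 hr and at least 12.1-fold higher at 4 hr (edgeR adjusted p = 0.570 and 0.929), while the 4 hr replicate without a read equalled the controls. mRpS21 was at 3.93, 1.61 and 0 CPM in controls, from 3 reads in all, and at 8.59, 58.2 and 28.3 CPM at 2 hr, from 101 reads. The pooled ratio was 17.98, with a 95% counting interval of 5.98 to 88.7, and the log2 fold change was 3.77 ± 1.56 (edgeR adjusted p = 0.603). The interval covers counting error only. At 4 hr mRpS21 was at 2.79, 13.2 and 65.4 CPM and overlapped the controls. mRpS31 was at 0, 2.42 and 0 CPM in controls and at 3.44, 112 and 8.19 CPM at 2 hr. Of its 125 reads at 2 hr, 112 were in replicate 2, and its log2 fold change was 4.55 ± 1.69 (edgeR adjusted p = 0.545).

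Counted by separation alone, 2, 14 and 11 tested members had every female-labelled injured library above every control at 1, 2 and 4 hr, against 3.62%, 9.56% and 7.84% of all genes tested. At 2 hr this was 21.9% of the tested members. Only mRpS35, at 2 hr, lay wholly below (3.3%, 5.17% and 3.92% of all genes at 1, 2 and 4 hr). mRpS35 is a mitochondria-specific small-subunit protein, and it was at 30.9, 29.1 and 20.9 CPM at 2 hr against 39.3, 53.2 and 46.0 CPM in controls, with a log2 fold change of -0.81 ± 0.71. Among the untested members, mRpL10 lay above every control at 2 hr (3.44, 36.1 and 3.72 CPM against no read) and mRpL43 at 4 hr.

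In male-labelled brains the fold changes of the 41 tested members had no common direction at 1 and 2 hr. Their size cannot be set directly beside the female-labelled values, because fewer members of low level were tested. Of members with a mean under 30 CPM, 37 were tested in female-labelled and 14 in male-labelled brains. The 27 members at 30 CPM or more ran from -0.83 to 2.25 at 4 hr in female-labelled and from -2.02 to 0.77 in male-labelled brains. By the unadjusted rule no member was higher and 1 of 41 lower at 1 hr, 1 was higher and none lower at 2 hr, and none was higher and 2 lower at 4 hr. Over all genes tested, the shares higher were 0.581%, 1.1% and 0.38% at the respective times, and the shares lower were 0.335%, 0.671% and 0.939%. The median log2 fold change was 0.12, -0.15 and -0.30, beside -0.04, 0.02 and -0.02 over all genes tested, and it was above 0 for 24, 17 and 13 of the 41 members, against 46.4%, 52.2% and 47.7% of all genes. At 4 hr the fold change was below 0 in 28 of 41 members, in 20 of 24 of the large subunit (median -0.48) and in 8 of 17 of the small subunit (median 0.00). The signs at 2 and 4 hr rested on male-labelled control replicate 2, the library with the high summed level. Without it, the medians were 0.34 at 1 hr, 0.34 at 2 hr and 0.11 at 4 hr, and no member was lower at 1 or 4 hr. Without control replicate 1, 3 members were lower at 1 hr and 5 at 4 hr, without control replicate 3 there were 3 at 4 hr, and without male-labelled 2 hr replicate 2 there were 3 at 2 hr. With the replicate numbers as a block, 1 member was higher and 1 lower at 2 hr. Counts over all genes in these fits are not set beside these counts, which therefore cannot be read as particular to the members.

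mRpL47 had the smallest p at both 1 and 2 hr. It was at 46.9, 44.3 and 59.2 CPM in male-labelled controls, at 70.3, 108 and 101 CPM at 1 hr and at 65.9, 150 and 107 CPM at 2 hr, with every injured library above every control at both times. The log2 fold changes were 0.92 ± 0.41 and 1.19 ± 0.41 (edgeR adjusted p = 0.999 and 1.00), and over the alternatives they stayed between 0.61 and 1.09 and between 0.84 and 1.43. At 4 hr it was at 49.2, 33.8 and 93.3 CPM, overlapping the controls. Its gene overlaps Rlb1 on the opposite strand. The same kind of overlap was found for other members described above, among them mRpL11, mRpL17, mRpL32, mRpL39, mRpS21, mRpS25 and mRpS31. It was absent for others described above, among them mRpL13, mRpL46, mRpL55, mRpS7 and mRpS35. In female-labelled brains mRpL47 was at 59.0, 75.8 and 46.0 CPM in controls and at 106, 108 and 55.3 CPM at 1 hr, with overlap.

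Members with lower levels included mRpS35 and mRpL41, both without bacterial numbers. mRpS35 was at 39.6, 102 and 35.5 CPM in male-labelled controls, and at 33.8, 33.8 and 20.9 CPM at 1 hr and 26.1, 33.8 and 26.4 CPM at 4 hr it lay below every control. The log2 fold changes were -1.11 ± 0.50 and -1.23 ± 0.56 (edgeR adjusted p = 0.999 for both). mRpL41 was at 28.8, 183 and 47.4 CPM in controls and at 34.7, 0 and 19.4 CPM at 4 hr (log2 fold change -2.02 ± 0.73, edgeR adjusted p = 0.999). Its control mean was carried by replicate 2, and the 0 belonged to a library in which 3 reads would have been 50.7 CPM. mRpS17, which binds ribosomal RNA early in the assembly of the bacterial small subunit, was at 46.8, 52.6 and 35.5 CPM in controls and at 17.4, 16.9 and 31.7 CPM at 4 hr, without overlap (-0.99 ± 0.46, edgeR adjusted p = 0.999). mRpL20, a protein of early large-subunit assembly in bacteria, had log2 fold changes of -0.79 ± 0.40 at 1 hr and -0.89 ± 0.44 at 4 hr, beside control levels of 63.1, 147 and 47.4 CPM. mRpS18A, 1 of 3 members that correspond to bacterial S18, did not exceed 55.9 CPM in controls and was at 59.5, 60.9 and 69.8 CPM at 1 hr (0.75 ± 0.41). mRpS16 was at 52.3, 41.5 and 59.2 CPM in controls and at 48.3, 109 and 83.9 CPM at 2 hr, and mRpS6 was at 10.8, 30.4 and 47.4 CPM in controls and at 4.39, 11.9 and 7.63 CPM at 2 hr, and both overlapped.

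By separation, 6 tested members lay above and 1 below every control at 1 hr in male-labelled brains, against 6.3% and 2.91% of all genes tested. At 2 hr 1 lay above and 1 below (2.37% and 1.86% of all genes), and at 4 hr 1 lay above and 3 below (4.05% and 3.44%). Members that were too low to be tested here included mRpL55, which had no read in male-labelled controls. It had 5, 2 and 4 reads at 1 hr, 0, 21 and 0 reads at 2 hr and 4, 0 and 2 reads at 4 hr. Its pooled level was therefore at least 1.56-fold, 3.71-fold and 2.06-fold higher against a floor of 3 reads, and only at 1 hr was it read in all 3 replicates. mRpL43 had 1, 2 and 1 reads in male-labelled controls and none at 2 hr, where the pooled level was at least 2.51-fold lower against the same floor. mRpS25 had 1 read in the controls and 12, 20 and 2 reads at 1, 2 and 4 hr, and all 20 at 2 hr were in replicate 2. mRpS21 had 1, 15 and 0 reads in male-labelled controls, and the 41.5 CPM of replicate 2 was above every injured male-labelled library.

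**Figure D4:**
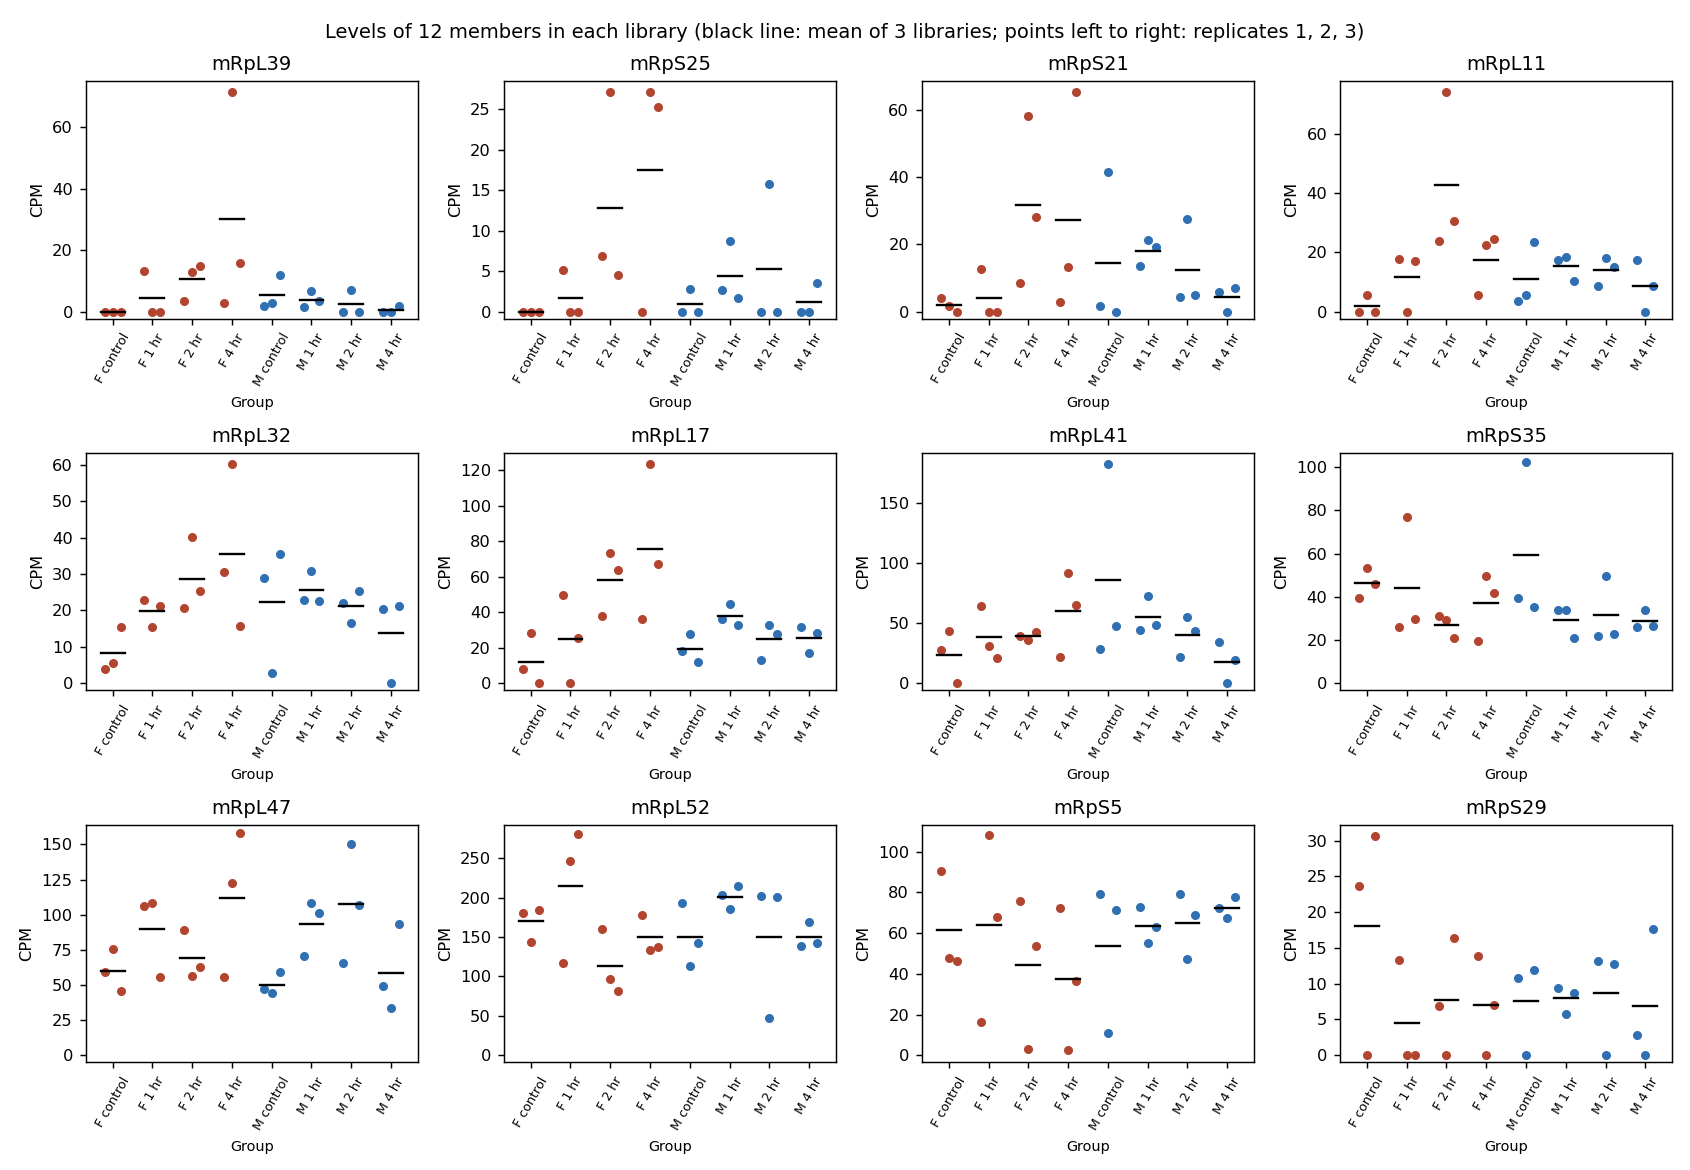
CPM of 12 members in each library (red, female-labelled; blue, male-labelled; points from left to right are replicates 1, 2 and 3, the black line is their mean). mRpL39 and mRpS25 are at 0 in the 3 female-labelled controls, mRpL47 lies above its male-labelled controls at 1 and 2 hr, and mRpS29 is at 0 in replicate 2 of 7 of the 8 groups.

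The difference between the sex labels was tested as an interaction over all 24 libraries, in which each female-labelled change shares its controls with the others. The median difference over the 58 members was 0.01 at 1 hr, 0.70 at 2 hr and 1.34 at 4 hr on the log2 scale, beside 0.06, -0.06 and 0.03 over all genes. It was above 0 for 31, 44 and 49 members, against 53.5%, 48% and 51.1% of all genes. By the unadjusted rule 0, 2 and 8 members had a larger change in female-labelled brains and none a smaller one, against 1.23%, 4.91% and 5.68% of all genes with a larger change and 0.494%, 0.531% and 0.677% with a smaller one. At 2 hr these were mRpS31 (5.40 ± 2.39) and mRpS21 (4.07 ± 1.86), both with edgeR adjusted p = 0.850. At 4 hr mRpL41 (3.06 ± 1.09) and mRpS21 (5.12 ± 1.98) had the smallest p (edgeR adjusted p = 0.733 for both). At 1 hr the smallest p belonged to mRpS31 (4.72 ± 2.43) and mRpL1 (3.24 ± 1.82), with edgeR adjusted p = 1.00. The 4 hr count of 8 became 1 without male-labelled control replicate 2, 3 without female-labelled 4 hr replicate 2 and 5 without female-labelled control replicate 1, and the median became 0.63, 0.98 and 1.41. Without both libraries low in roX1 the count at 4 hr was 3 and the median 0.81. The count of 2 at 2 hr became 0 without both libraries low in roX1 and without female-labelled 2 hr replicate 2, male-labelled 2 hr replicate 1 or male-labelled 2 hr replicate 3. It became 1 without female-labelled control replicate 3 or male-labelled control replicate 2, 5 without male-labelled control replicate 1 and 6 without female-labelled control replicate 2, with RLE size factors and by DESeq2, and it reached 7 without male-labelled 2 hr replicate 2. Values over all genes in these alternative fits are not set beside them. Shifts of the members alone therefore cannot be told from shifts of the whole fit.

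Between the controls, members were lower in female-labelled than in male-labelled brains at the median, with a log2 difference of -0.48 beside -0.02 over all genes, and 17 of 58 were above 0, against 48.6% of all genes. None was higher and 1 lower by the unadjusted rule, against 0.476% and 1.48% of all genes. That member was mRpL41, at 27.5, 43.5 and 0 CPM in female-labelled and 28.8, 183 and 47.4 CPM in male-labelled controls (log2 difference -1.59 ± 0.77, edgeR adjusted p = 1.00). mRpL37, which like mRpL41 has no bacterial number, was at 0, 4.84 and 0 CPM against 5.41, 33.2 and 11.9 CPM, without overlap (-2.50 ± 1.37). mRpL32 was at 3.93, 5.64 and 15.3 CPM against 28.8, 2.77 and 35.5 CPM and overlapped (-1.68 ± 0.91), and mRpS21 differed by -2.85 ± 1.504. No member lay wholly above and 3 lay wholly below, against 3.5% and 3.86% of all genes. Without male-labelled control replicate 2 the median was 0.04, and without female-labelled control replicate 2 it was -0.81 and 6 members were lower. The count over all genes in that fit is not set beside the 6, which cannot be read as particular to the members.

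A few members went the other way from the summed level. In the 8 libraries over 1000000 counts the pooled level was above that of the other 16 for 63 of the 71 members with at least 10 reads, with a median ratio of 1.83, and it was below it for 7. Of those 7, 5 were under 0.8, namely mRpS5 (0.463), mRpS29 (0.543), mRpS34 (0.585), mRpL52 (0.641) and mRpS10 (0.706). Of these 5, 4 belong to the small subunit. The 5 were picked by this ratio, so their low levels in deep libraries are no separate result. Ratios were taken for the members alone, with no share over all genes. The median summed level of cytoplasmic ribosomal proteins was 196000 CPM in the 8 deep libraries, 153600 CPM in the 12 between and 122400 CPM in the 4 under 100000 counts. For neuronal markers the respective medians were 3198, 4900 and 4703 CPM. mRpS5, which in bacteria lines the entry of the messenger RNA, was at 3.01 CPM in female-labelled 2 hr replicate 2, 2.65 CPM in female-labelled 4 hr replicate 2, 11.1 CPM in male-labelled control replicate 2 and 16.3 CPM in female-labelled 1 hr replicate 1. In the other 20 libraries it was at 36.6 to 108 CPM. Those 4 libraries were also the 4 with the lowest neuronal markers (557 to 2714 CPM). In the same 4 libraries mRpS10 was at 11.04 to 27.4 CPM and mRpS34 at 11.1 to 22.1 CPM, but levels in that range or below occurred elsewhere too, such as 4.74 CPM of mRpS10 and 19.0 CPM of mRpS34 in male-labelled 2 hr replicate 2. In female-labelled 2 hr replicate 2 mRpL54 had 1 read where replicate 3 had 85, and mRpS22 and mRpS18B had none, whereas mRpL28, mRpS31 and mRpL35 had 217, 112 and 99 reads.

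mRpS29, the counterpart of the human GTP-binding protein DAP3, had a pattern of its own. It was read in 16 libraries and had no read in replicate 2 of 7 of the 8 groups. In male-labelled 1 hr replicate 2 it had 6 reads. Among the libraries without a read, female-labelled 1 hr replicate 2 and male-labelled 4 hr replicate 2 were shallow. There 1 read is worth 15.4 and 16.9 CPM, above the mean level of mRpS29 (8.54 CPM), so that no read says little. Replicate 2 of female-labelled controls held 1193051 counts, in which 3 reads would be 2.42 CPM, while replicates 1 and 3 of the same group were at 23.6 and 30.7 CPM. The value of 30.7 CPM came from 2 reads. Its log2 fold changes in female-labelled brains were -1.31 ± 2.04, -0.99 ± 1.94 and -1.26 ± 1.99 at 1, 2 and 4 hr. The replicate number is not described as a batch in the labels, and what the replicates shared was not tested. Of the 64 members tested in female-labelled brains, 23 had their highest level of all 24 libraries in female-labelled 4 hr replicate 2, 8 in male-labelled control replicate 2 and 6 each in female-labelled 1 hr replicate 1 and 2 hr replicate 2. The same was not counted over all genes, so these numbers cannot be read as particular to the members. Female-labelled 4 hr replicate 2 was also the deepest library, at 1769669 counts.

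Genes that work with the mitochondrial ribosome were examined beside it, from a list of 29 further genes of mitochondrial translation, of which 12 were tested in female-labelled and 7 in male-labelled brains. None was called. By the unadjusted rule 1 was higher in female-labelled brains at each of 2 and 4 hr, and none elsewhere among the comparisons with control. This is 8.33% of the 12, beside 6.93% and 4.78% of all genes. At 4 hr this was bonsai, which encodes the mitochondrial counterpart of the small-subunit protein S15 and falls outside the symbol rule. It was at 0, 3.224 and 0 CPM in controls and at 11.1, 41.0 and 35.8 CPM at 4 hr, without overlap (log2 fold change 3.81 ± 1.47, edgeR adjusted p = 0.929). At 2 hr it was CG6412, which encodes mitochondrial elongation factor Ts, at 19.7, 22.6 and 15.3 CPM in controls and at 39.5, 262 and 20.9 CPM at 2 hr (2.35 ± 1.04, edgeR adjusted p = 0.647). PheRS-m, the mitochondrial phenylalanyl-tRNA synthetase, had the smallest p of the list in male-labelled brains, at 1 hr (0.83 ± 0.39, edgeR adjusted p = 0.999). The technical knockout gene tko, which encodes the mitochondrial counterpart of S12, was at 82.6, 155 and 15.3 CPM in female-labelled controls and at 89.2, 144 and 116 CPM at 4 hr.

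The respiratory chain and ATP synthase include the partners of the proteins that the mitochondrial ribosome makes. The median log2 fold change of their 67 tested nuclear genes in female-labelled brains was -0.02, -0.01 and 0.20 at 1, 2 and 4 hr, with 0, 5 and 5 genes higher by the unadjusted rule. That is 7.46% at both 2 and 4 hr, beside 6.93% and 4.78% of all genes, and 44.8%, 47.8% and 70.1% of the 67 were above 0, beside 53.2%, 50.2% and 51.3%. Cytoplasmic ribosomal proteins had medians of 0.24, 0.77 and 0.61 over 78 genes, with 0, 19 and 6 higher (24.4% at 2 hr and 7.69% at 4 hr) and 80.8%, 89.7% and 87.2% above 0. The summed level of the 73 mitochondrial genes was 1.29 ± 0.40% of that of the cytoplasmic ribosomal proteins in female-labelled controls and 1.39 ± 0.09%, 1.34 ± 0.25% and 1.58 ± 0.29% at 1, 2 and 4 hr. Relative to the respiratory chain it was 3.03 ± 0.92% in controls, 3.83 ± 1.03% at 1 hr and 4.86 ± 1.81% at 4 hr, and the 2 hr libraries lay between 3.53 and 6.46%. In male-labelled brains the first ratio was 1.49 ± 0.15% in controls and 1.59 ± 0.08%, 1.45 ± 0.15% and 1.33 ± 0.14% after injury. No difference between these lists was tested.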

How the data were processed

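Libraries were made from total RNA of single brains with QuantSeq 3′ mRNA-Seq FWD, a method that reads transcript ends. Per the labels and the study's methods, the authors demultiplexed with CASAVA 1.8.2, aligned with STAR 2.4 to dm3 and deposited raw counts per gene from HTSeq. Those counts were used as deposited.

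Members and gene lists were chosen with earlier results of these data known. Symbols matched Release 6 names for all 73 members. Chromosome arms and overlaps with other gene models were taken from the Release 6 annotation, whereas the counts were made on dm3. Overlaps in the build that was counted may therefore differ. The quasi-likelihood test of edgeR 4.0.16 (R 4.3.3) was fitted with TMM factors, the default filter on low counts and group means, on the 12 libraries of a sex label or on all 24. p-values were adjusted over all genes. The authors used edgeR 3.22.3. Columns of the authors' own comparisons were not used. Floors are 3 reads over a group, and ratios of pooled reads have 95% exact binomial intervals. The scripts were tested on simulated data. Replicates are stated to be biological. No pair of the 276 pairs of libraries was identical.

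Members named in the text were those the study names (mRpL43, mRpL55, mRpS21, mRpS25), the 4 of smallest p in each comparison with control and between controls, the 2 of smallest p in each sex-label difference, the 6 of highest mean CPM, and up to 3 other mitochondrial translation genes. Others (mRpL10, mRpL13, mRpL24, mRpL28, mRpL35, mRpL44, mRpL54, mRpS5, mRpS10, mRpS18B, mRpS22, mRpS29, mRpS34, tko) were chosen after their values were seen. Alternatives were DESeq2 1.42.0, limma-voom 3.58.1 with sample weights, other scalings and filters, a likelihood ratio test, the replicate block, and leaving out libraries. Deviations of libraries with the same replicate number had positive correlations in all 3 replicates between male-labelled 2 hr and control (0.184, 0.484 and 0.140). The same held between male-labelled 1 hr and control (0.082, 0.302 and 0.092). Both comparisons share the male-labelled controls, and whether the numbers pair the samples was not tested.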

Additional observations from a re-analysis of the deposited data

Results flagged for a closer look

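In 2 members every female-labelled 4 hr library lay above every female-labelled control and every male-labelled 4 hr library lay below every male-labelled control. For mRpL39 the changes of log2(mean CPM + 1) differed by 6.98 between the sex labels, from 0, 0 and 0 reads in female-labelled controls and 1, 108 and 18 reads at 4 hr, and 1, 1 and 1 reads in male-labelled controls and 0, 0 and 1 reads at 4 hr. For mRpL43 they differed by 4.10, from 0, 0 and 0 and 1, 4 and 3 reads in female-labelled and 1, 2 and 1 and 0, 0 and 1 reads in male-labelled brains. These differences depend on the pseudocount of 1 CPM, because no read fell in the female-labelled controls. As bounds against a floor of 3 reads over those controls, the female-labelled 4 hr level was at least 21.9-fold higher for mRpL39 and at least 1.38-fold higher for mRpL43. In male-labelled brains the separation of both members rested on 1 read at 1.761 CPM against 1 read at 1.802 CPM in libraries of different depth. Both were left out of the fit over 24 libraries for low counts, so that the difference between the sex labels was not tested. Groups of 3 libraries were not searched for outlying samples.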

How the results depend on the processing

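No member was called in any comparison under any alternative, although some called other genes. At 2 hr in female-labelled brains 95 genes were called with no filter on low counts, 26 by DESeq2, 30 by the likelihood ratio test and 20 without 2 hr replicate 1. Of 772 fold changes of named genes under the alternatives, 765 kept their direction and 7 reversed. By limma-voom with sample weights mRpL55 was at -0.36 at 2 hr in female-labelled brains and mRpS21 at 0.40 between the controls. When libraries were left out in turn, mRpL55 at 1 hr in female-labelled brains ran from -0.14 to 1.68, mRpS21 at 1 hr from -3.71 to 2.00 and between the controls from -3.42 to 0.45, and the sex-label difference of mRpS31 from -1.105 to 7.81 at 1 hr and from -0.45 to 10.2 at 2 hr. The median over members ran from 0.31 to 1.17 at 2 hr and from 0.37 to 1.60 at 4 hr in female-labelled brains, and from -0.42 to 0.34 at 2 hr in male-labelled brains. For the sex-label difference it ran from -0.55 to 0.80 at 1 hr, from 0.14 to 1.302 at 2 hr and from 0.63 to 1.803 at 4 hr. The cause was not tested. Where 1 control was left out, the fit pooled the spread over the remaining groups. With library size alone, the medians of members at 1, 2 and 4 hr in female-labelled brains were 0.09, 0.23 and 0.54, where all genes were at -0.09, -0.26 and -0.19. Libraries under 100000 counts, where 1 read is worth 11.8 CPM or more, limit what can be detected for most members.

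With the replicate number as a block, the medians at 1, 2 and 4 hr were 0.40, 0.66 and 0.81 in female-labelled and 0.19, -0.22 and -0.22 in male-labelled brains, with 3, 5 and 6 members higher by the unadjusted rule in female-labelled brains. Over all 5918 genes tested in female-labelled brains, 89, 290 and 195 were higher with the block. The block changed no call. The numbers were not taken to pair the samples in the main fits. Outside the male-labelled 2 hr comparison, the correlations of their deviations ran from -0.137 to 0.302.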
